A study of Homo sapiens with 6 samples.

Results

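The mitosis and spindle genes described here are 34 genes that carry a cell through chromosome segregation and division, from the cyclins and kinases that start mitosis to the proteins that cut the cell in 2. They are a list of names, proposed with earlier results of these data known, and were matched, by a rule that uses no difference between groups, to probe sets whose platform annotation names 1 gene. That gave 33 of the 34 genes among 18417 genes tested. CENPA, the histone variant that marks centromeres, has 1 probe set that also carries another gene's symbol, and it was not analysed here. BIRC5 has 2 probe sets and is shown by the brighter one; each of the other 32 measured genes has 1.

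The arrays hold total RNA of MDA-MB231 cells, an established line of metastatic breast cancer cells grown in serum and harvested in logarithmic growth. The control group is 3 arrays of the untreated parental cells, and the knockdown group is 3 arrays of a single clone in which G9a is stably knocked down; G9a is a histone H3 methyltransferase encoded by EHMT2. How the knockdown was made is not stated in the labels. A clone can differ from its parental population in ways other than the knockdown, and clone and knockdown cannot be told apart here. Whether the replicates are separate cultures is not stated, and the p-values therefore cover the array-to-array spread alone, which may be technical. In bulk RNA, fewer cells in mitosis and less RNA per mitotic cell cannot be told apart.

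Mitotic genes are known to be transcribed late in the cell cycle. Their promoters are held silent in resting cells and in G1 by a repressor complex built on the MuvB core, and are later switched on by MYBL2 and FOXM1 bound to the same core. The complex reads a short element called the CHR (cell cycle genes homology region), and the factor NF-Y, bound to CCAAT boxes near by, supports the activity. Once made, many of the proteins are destroyed during mitotic exit by the ubiquitin ligase APC/C. In proliferating tumour cells the set is commonly read as a measure of how many cells are cycling.

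Promoter sequence is shown first because it is what most of these genes share beyond their function. The RefSeq promoter table (GRCh38.p14) held 28 of the 34 genes in 32 windows, each running from 250 bases before a transcription start to 50 after it; 4 genes had 2 windows. A CHR was searched as TTTGAA or TTCGAA on either strand, and a CCAAT box as CCAAT on either strand. A CHR match lay in 23 of the 32 windows (71.9%), against 16.4% of all 35116 windows in the table, and in 19 of those 23 windows at least 1 match began no further than 100 bases before the start or lay after it. A CCAAT match lay in 25 windows (78.1%, against 34.6%), and both in 18 (56.2%, against 6.38%). Of 137 windows of the other mitosis genes described further on, 46.7% held a CHR match, 53.3% a CCAAT match and 29.2% both. By contrast, of 48 windows of G1/S and replication genes 2 (4.17%) held a CHR match and 30 (62.5%) a CCAAT match. A match is a description of letters, not a shown binding site. The windows of a gene with 2 starts overlap or lie close together.

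The 250 bases before the start are printed for 6 genes, 5′ to 3′ on the gene's own strand, with CHR and CCAAT matches of either strand in capitals. PTTG1 (chr5:160421605-160421854, plus strand) is shown because it is the gene of the list that passed the test, in its window at the earlier of 2 starts. The cyclin B genes CCNB1 (chr5:69166900-69167149, plus) and CCNB2 (chr15:59104896-59105145, plus) are a paralogous pair that differ in these letters. PLK1 (chr16:23678639-23678888, plus), CDC20 (chr1:43358731-43358980, plus) and MKI67 (chr10:128126424-128126673, minus) show the CHR close to the start.
PTTG1: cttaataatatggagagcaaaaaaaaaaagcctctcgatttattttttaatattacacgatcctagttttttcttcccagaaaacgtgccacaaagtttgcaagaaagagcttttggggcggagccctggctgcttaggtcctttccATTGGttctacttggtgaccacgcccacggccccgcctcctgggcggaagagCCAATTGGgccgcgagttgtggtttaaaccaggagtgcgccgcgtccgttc
CCNB1: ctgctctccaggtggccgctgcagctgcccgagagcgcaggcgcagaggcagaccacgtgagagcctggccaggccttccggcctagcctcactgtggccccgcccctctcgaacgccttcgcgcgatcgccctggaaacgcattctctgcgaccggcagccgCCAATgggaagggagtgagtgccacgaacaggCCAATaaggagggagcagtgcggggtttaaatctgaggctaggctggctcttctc
CCNB2: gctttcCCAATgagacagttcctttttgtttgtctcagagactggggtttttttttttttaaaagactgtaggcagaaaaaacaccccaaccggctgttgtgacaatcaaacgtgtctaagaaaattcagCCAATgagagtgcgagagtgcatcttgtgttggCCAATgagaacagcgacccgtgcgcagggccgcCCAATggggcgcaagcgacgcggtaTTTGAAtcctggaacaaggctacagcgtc
PLK1: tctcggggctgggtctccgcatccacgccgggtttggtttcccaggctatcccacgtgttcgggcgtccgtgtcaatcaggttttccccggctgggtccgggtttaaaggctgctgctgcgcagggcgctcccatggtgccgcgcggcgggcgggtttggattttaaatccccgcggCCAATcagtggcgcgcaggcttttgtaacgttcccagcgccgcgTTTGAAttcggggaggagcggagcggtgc
CDC20: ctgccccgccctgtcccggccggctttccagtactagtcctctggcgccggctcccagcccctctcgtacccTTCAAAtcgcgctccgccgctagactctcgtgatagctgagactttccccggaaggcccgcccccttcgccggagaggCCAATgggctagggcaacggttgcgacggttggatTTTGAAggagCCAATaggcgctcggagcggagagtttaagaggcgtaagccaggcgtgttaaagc
MKI67: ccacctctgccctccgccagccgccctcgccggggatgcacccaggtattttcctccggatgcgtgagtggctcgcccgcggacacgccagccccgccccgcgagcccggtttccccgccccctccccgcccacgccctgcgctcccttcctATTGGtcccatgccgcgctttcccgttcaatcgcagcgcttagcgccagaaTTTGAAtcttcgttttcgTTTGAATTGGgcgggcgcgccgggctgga
In PLK1, TTTGAA began 29 bases before the start, and in CCNB2 likewise 29 bases before it, downstream of 4 CCAAT boxes. CDC20 held TTTGAA 65 bases before the start between 2 CCAAT boxes, and TTCAAA, the same motif on the other strand, at 178. MKI67 held TTTGAA at 47 and at 29 bases before the start, the latter running into an inverted CCAAT box that shares its last A. PTTG1 had no CHR match in either window and 3 CCAAT matches, 2 of them overlapping as CCAATTGG, which says only that those CHR letters are not in these windows. CCNB1 had 2 CCAAT boxes and no CHR match, with the same limit. In both genes, letters other than TTTGAA and TTCGAA on either strand were not searched as a CHR.

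The targeted gene was lower in the clone. EHMT2 read 10.21, 10.27 and 9.93 on the control arrays and 9.66, 9.59 and 9.51 on the knockdown arrays, a fall of 0.55 ± 0.10 (SE) on the log2 scale (limma, adjusted p = 0.0259; n = 3 arrays per group), and the groups did not overlap. The EHMT2 call was lost with any 1 array left out but control replicate 3 (adjusted p from 0.0716 to 0.122). Control replicate 3 stood apart from the other control arrays, with a limma array weight of 0.273 against 1.03 and 4.83. The line's own markers were bright on every array, VIM at 13.47 to 13.54 and CD44 at 13.56 to 13.65, while the hormone receptor genes ESR1 and PGR, absent in this line, read 5.38 to 6.88; with no detection call, a low value cannot be told from background. Of 8 measured markers of leukocytes, fibroblasts and endothelial cells, 7 had positive differences, beside 59.6% of all genes. In the main fit 1 of the 8 passed, beside 1.28% of all genes called higher. It was the endothelial cadherin gene CDH5, which rose by 0.71 (limma, adjusted p = 0.0210). The CDH5 call was lost without control replicate 2 (adjusted p = 0.0671) or without any 1 knockdown array (0.0615 to 0.0869). With arrays weighted by their fit, limma called 6 of the 8 markers higher, beside 9.33% of all genes. These were PTPRC, CD3E, PDGFRB, COL1A1, PECAM1 and CDH5. PECAM1 was also called higher with an intensity trend and without control replicate 3, but not without any other 1 array. The mean log2 value of the 8 markers ranged from 6.79 to 7.03 in control and from 7.11 to 7.14 in knockdown. Their part in the results below was not tested.

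Over all 6 arrays, the mitosis and spindle genes had the same median difference as all genes. The differences, knockdown minus control on the log2 scale, had a median of 0.03, which is also the median over all genes tested, and 22 were above 0 and 11 below (66.7% above, beside 59.6% of all genes). PTTG1 passed the test and fell, and 32 genes did not pass. At an adjusted p of 0.05 limma called 0 of 33 higher and 1 lower (3.03%). Of all genes, 1.28% were called higher and 1.78% lower. At an unadjusted p of 0.05, 2 were higher (6.06%) and 1 lower (3.03%), beside 10.1% of all genes higher and 9.23% lower. The 95% intervals of the 32 genes that did not pass reached from -0.35 (CENPE) to 0.53 (SPC25), so a change of 2-fold lay outside the interval of each, and 30 of these intervals included 0. Those of CCNB2 and FOXM1 lay above 0. After median centring of the arrays, 18 of the 33 differences were above 0 and 15 below. With arrays weighted by their fit, limma called 2 genes higher (CCNB2 and PRC1, 0.17 and 0.13 in the unweighted fit) and 2 lower (PTTG1 and KIF2C), beside 9.33% of all genes higher and 8.74% lower.

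**Figure D1:**
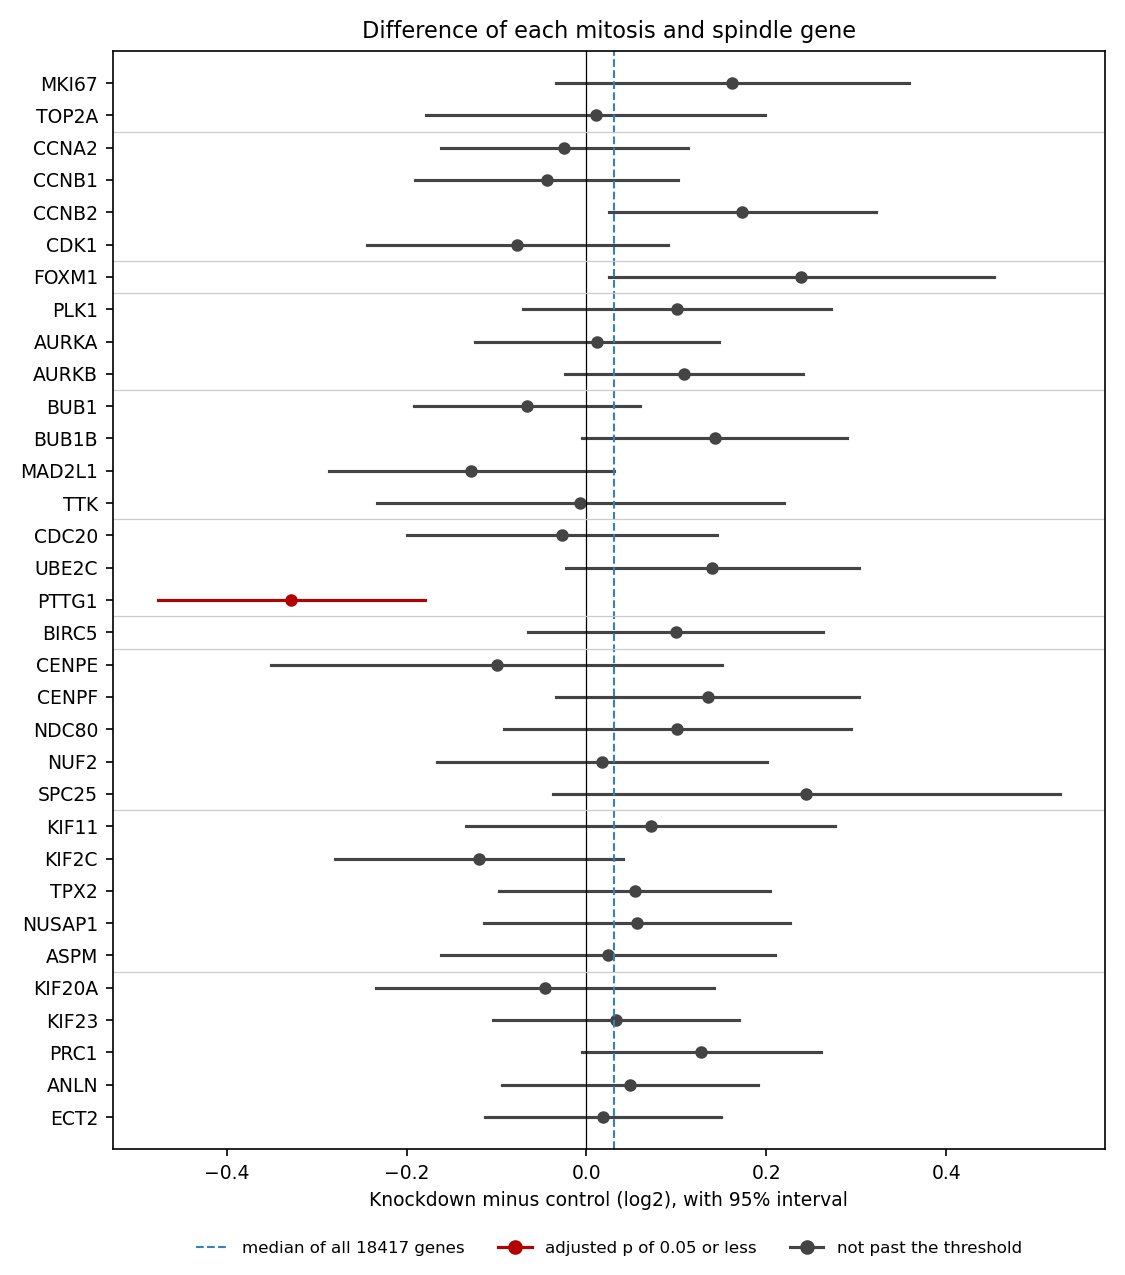
Difference of each of the 33 measured genes, knockdown minus control on the log2 scale (horizontal axis), with its unadjusted 95% interval from limma, n = 3 arrays per group; grey lines separate roles and the dashed line is the median of all 18417 genes, 0.03. PTTG1 (red, -0.33) is the gene past the threshold, and 18 of the 33 genes lie within 0.1 of 0.

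MKI67 and TOP2A are the classical markers of cycling cells; MKI67 encodes Ki-67, which coats mitotic chromosomes, and TOP2A the topoisomerase that untangles them. MKI67 read 12.30, 12.26 and 12.02 in control and 12.31, 12.33 and 12.43 in knockdown (difference 0.16 ± 0.09, SE; limma, adjusted p = 0.344). The groups did not overlap, but by a narrow margin, and control replicate 3 was the low array; without it the difference was 0.08. TOP2A read 12.75, 12.76 and 12.57 in control and 12.58, 12.73 and 12.80 in knockdown (0.01 ± 0.08). Here 1 array of each group was low by a like amount, so the means were nearly equal, and the sign turned to -0.05 without control replicate 3.

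The mitotic cyclins and their kinase had small differences in both directions. CCNB1, cyclin B1, read 11.62, 11.65 and 11.56 in control and 11.49, 11.62 and 11.59 in knockdown (-0.04 ± 0.06). CCNB2, cyclin B2, read 11.78, 11.67 and 11.67 in control and 11.82, 11.89 and 11.93 in knockdown (0.17 ± 0.06; adjusted p = 0.195). Every knockdown array of CCNB2 was above every control array, whereas the groups overlapped for CCNB1; the difference between the paralogs was not tested. CCNA2, cyclin A2, which acts from S phase into early mitosis, read 12.36, 12.31 and 12.25 in control and 12.25, 12.31 and 12.28 in knockdown (-0.02 ± 0.06). CDK1, the catalytic partner of these cyclins, read 11.37, 11.36 and 11.35 in control and 11.15, 11.36 and 11.35 in knockdown (-0.08 ± 0.07). Knockdown replicate 1 was the low array of CDK1 and the other 5 lay within a narrow band; without it the difference was -0.0072.

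FOXM1, the transcription factor that activates late cell cycle genes, read 12.26, 12.19 and 11.94 in control and 12.42, 12.42 and 12.27 in knockdown. Its difference was 0.24 ± 0.09 (1.18-fold; 95% interval 0.02 to 0.45), and it did not pass after adjustment over all genes (limma, adjusted p = 0.212). The lowest knockdown array barely exceeded the highest control array, and without control replicate 3 the difference was 0.14. FOXM1 thus had the largest positive difference of the list after SPC25, and neither passed.

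Among the mitotic kinases, PLK1, which drives centrosome maturation and mitotic entry, read 13.21, 13.14 and 13.04 in control and 13.25, 13.31 and 13.13 in knockdown (0.10 ± 0.07). AURKA, the spindle pole kinase, read 12.66, 12.66 and 12.63 in control and 12.60, 12.69 and 12.70 in knockdown (0.01 ± 0.06). AURKB, the kinase of the chromosomal passenger complex, read 12.14, 12.15 and 12.15 in control and 12.31, 12.21 and 12.24 in knockdown (0.11 ± 0.06; adjusted p = 0.347). AURKB is the one of these kinases whose groups did not overlap, with control arrays that hardly differed (SD 0.0057). BIRC5, which encodes survivin of the same complex, read 10.88, 10.86 and 10.69 in control and 10.95, 10.93 and 10.85 in knockdown (0.10 ± 0.07), with overlapping groups. The second, dimmer BIRC5 probe set had a difference of 0.03.

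The spindle checkpoint holds back anaphase until every chromosome is attached. BUB1, a checkpoint kinase at the kinetochore, read 12.75, 12.71 and 12.72 in control and 12.67, 12.65 and 12.67 in knockdown (-0.07 ± 0.05; adjusted p = 0.553). MAD2L1, the MAD2 protein that captures CDC20, read 11.48, 11.41 and 11.43 in control and 11.20, 11.37 and 11.37 in knockdown (-0.13 ± 0.07; adjusted p = 0.355). BUB1B, the BUBR1 subunit of the inhibitory complex, read 11.65, 11.65 and 11.51 in control and 11.74, 11.72 and 11.77 in knockdown (0.14 ± 0.06; adjusted p = 0.271). So 3 checkpoint genes had groups that did not overlap, BUB1 and MAD2L1 with the knockdown below and BUB1B with it above, and none passed. TTK, the MPS1 kinase at the head of the checkpoint, was lowest on knockdown replicate 1 (10.56) and its other 5 values were 10.74 to 10.91; its difference was -0.0067, and 0.11 without that array.

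The genes that time anaphase held the one call. PTTG1 encodes securin, which restrains the cohesin-cutting protease separase until APC/C destroys it. Its control arrays read 10.44, 10.48 and 10.44, and its knockdown arrays 10.18, 10.17 and 10.03. The 3 knockdown arrays were all below the control arrays, which lay close together (10.45 ± 0.02 against 10.13 ± 0.09; SD, n = 3). PTTG1 fell by 0.33 ± 0.06 (SE) on the log2 scale, to 0.796 of the control level (95% interval 0.719 to 0.883; limma, adjusted p = 0.0379). The call needed all 6 arrays. Leaving out control replicate 1, 2 or 3 gave an adjusted p of 0.101, 0.129 or 0.0571, and leaving out knockdown replicate 1, 2 or 3 gave 0.0829, 0.0853 or 0.149, while the difference stayed between -0.36 and -0.28. It was 0.111 with every probe set of the array tested.

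PTTG1 has close copies, and probe sets of such genes may share signal, so its separate value is uncertain. The intronless copy PTTG2 was dim (4.37 in control and 4.11 in knockdown) with a difference of -0.26 ± 0.11, and the pseudogene PTTG3P had one of -0.26 ± 0.07 (limma, adjusted p = 0.256 and 0.101); both were chosen for this check. PTTG1IP, a binding partner of securin and no copy of it, had a difference of 0.15 ± 0.06 (adjusted p = 0.232).

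CDC20, the activator through which APC/C destroys securin and cyclin B, read 13.20, 13.15 and 12.97 in control and 13.13, 13.06 and 13.04 in knockdown (-0.03 ± 0.08). UBE2C, the ubiquitin-conjugating enzyme of APC/C, read 11.21, 11.20 and 11.14 in control and 11.43, 11.33 and 11.22 in knockdown (0.14 ± 0.07; adjusted p = 0.328). The UBE2C groups were apart by less than their own spread, and those of CDC20 overlapped. PTTG1 and UBE2C, both of this step, therefore lay on opposite sides of 0.

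Kinetochore genes build the site where microtubules grip the chromosome. CENPF, a large kinetochore protein of late G2, read 11.93, 11.88 and 11.74 in control and 11.91, 11.98 and 12.07 in knockdown (0.13 ± 0.07). SPC25, a subunit of the NDC80 complex that binds microtubules, read 10.11, 10.02 and 9.71 in control and 10.01, 10.36 and 10.22 in knockdown (0.24 ± 0.12; adjusted p = 0.323). It had the largest standard error of the list, with control replicate 3 low and knockdown replicate 2 high, and its difference was 0.13 without control replicate 3. The other subunits measured, NDC80 (0.10) and NUF2 (0.02), and the motor CENPE (-0.10), had overlapping groups. CENPE was low on control replicate 3 (10.74) and knockdown replicate 1 (10.66) and 10.92 to 11.06 on the other arrays.

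Of the spindle motors and assembly factors, KIF2C, a kinesin that takes microtubules apart at centromeres, read 11.21, 11.20 and 11.04 in control and 10.98, 11.08 and 11.03 in knockdown (-0.12 ± 0.07; adjusted p = 0.391). Without control replicate 3 its difference was -0.18. KIF11, the motor that pushes spindle poles apart (0.07), TPX2, the activator of AURKA (0.05), NUSAP1, which bundles spindle microtubules (0.06), and the pole protein ASPM (0.02) differed by less than 0.1. The groups of all 5 genes overlapped.

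Cytokinesis genes also had small differences. PRC1, which bundles microtubules of the central spindle, read 12.22, 12.22 and 12.21 in control and 12.32, 12.31 and 12.40 in knockdown (0.13 ± 0.06; adjusted p = 0.274), with no overlap. The difference was 0.12 without control replicate 3, close to its value with all arrays. The central spindle kinesins KIF20A (-0.05) and KIF23 (0.03), the contractile ring scaffold ANLN (0.05) and the RhoA activator ECT2 (0.02) had overlapping groups.

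Counting groups that did not overlap, 7 of the 33 genes were higher in the knockdown (21.2%; MKI67, CCNB2, FOXM1, AURKB, BUB1B, UBE2C and PRC1), beside 14.3% of all genes. The 3 lower genes were BUB1, MAD2L1 and PTTG1 (9.09%, beside 12.7% of all genes). These shares were not tested against each other, and PTTG1 is the one of these 10 that passed the test.

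The genes shared a pattern across single arrays that cut across the groups. Control replicate 3 held the lowest of the 6 values in 17 of the 33 genes (51.5%), beside 24.8% of all genes, and the highest in 0, beside 19.8%. Knockdown replicate 1 held the lowest in 10 (30.3%, beside 17.8%), although over all genes this array held the highest value most often (31.9%; 12.1% of the list). These 2 arrays, 1 from each group, together held the lowest value in 27 of the 33 genes. Control replicates 1 and 2 and knockdown replicates 2 and 3 held the lowest value in 1, 3, 1 and 1 genes (19.9%, 13.1%, 11.9% and 12.4% of all genes). The same 4 arrays held the highest value in 8, 2, 7 and 12 genes (14.1%, 9.12%, 13.6% and 11.4% of all genes). So low values were gathered on 1 array of each group. The median deviation from a gene's 6-array mean was -0.10 on control replicate 3 and -0.04 on knockdown replicate 1, and 0.03, 0.0061, 0.04 and 0.04 on control replicates 1 and 2 and knockdown replicates 2 and 3. Control replicate 3 was lowest for MKI67, TOP2A, FOXM1, PLK1, BUB1B and BIRC5, and knockdown replicate 1 for CDK1, MAD2L1, TTK, CENPE and CCNB1. Low values on control replicate 3 were not particular to the list. In the 117 other mitosis genes described below, that array was lowest in 72 (61.5%), with a median deviation of -0.12. Knockdown replicate 1 was lowest in 26 of the 117 (22.2%) and highest in 23 (19.7%), with a median deviation of -0.0014.

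**Figure D2:**
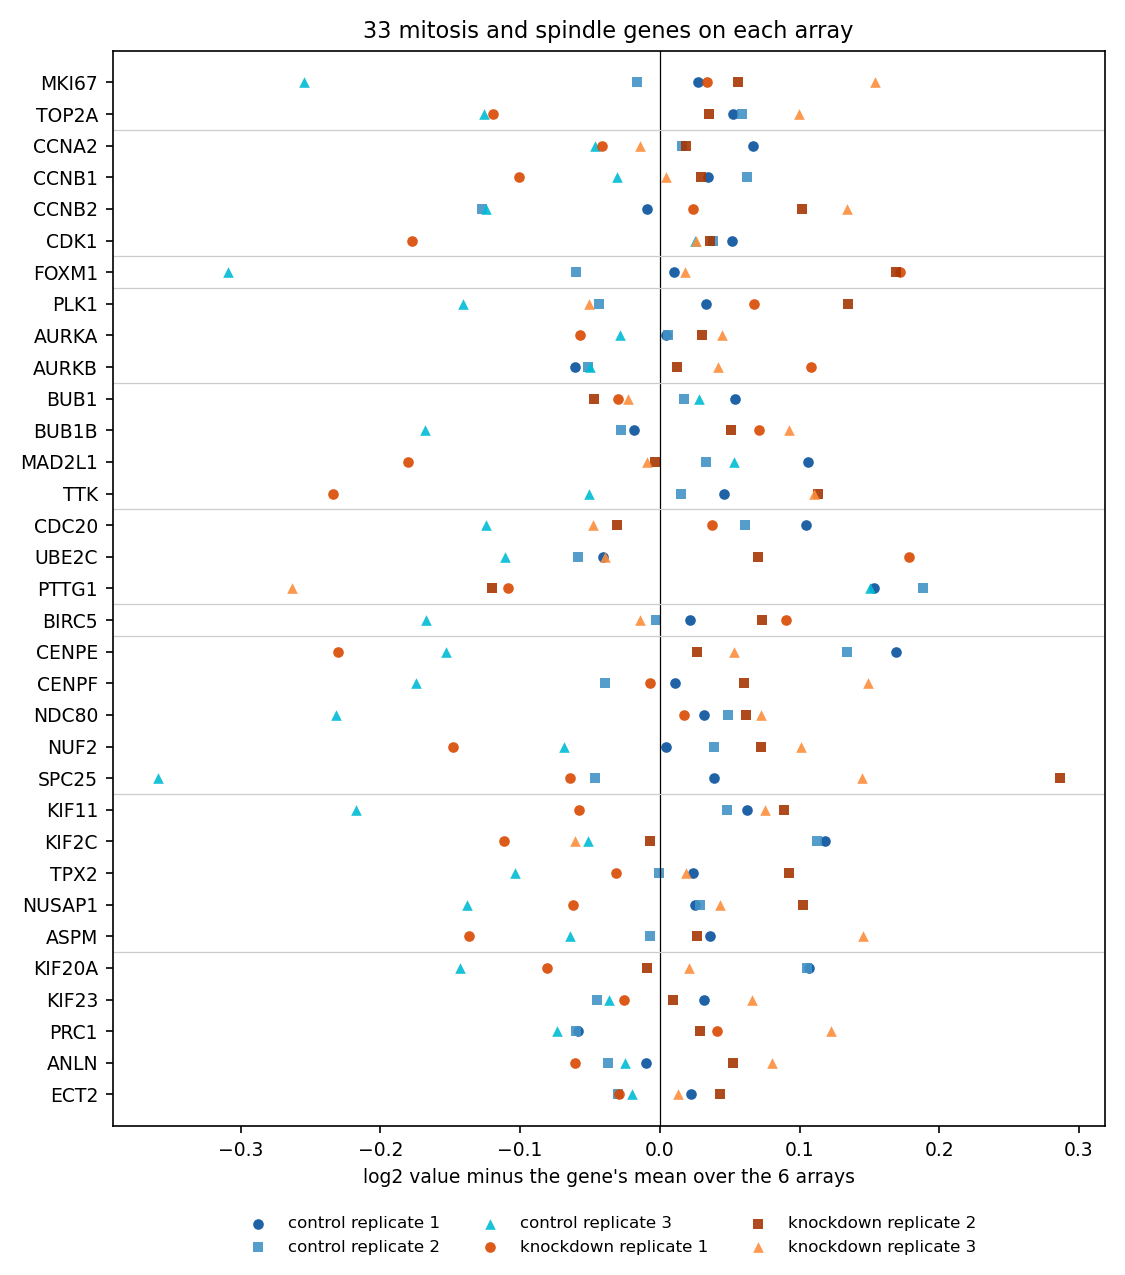
Log2 value of each of the 33 genes on each of the 6 arrays, minus that gene's mean over the 6 arrays (horizontal axis, log2), with control arrays in blues and knockdown arrays in oranges; grey lines separate roles. Control replicate 3 (light blue triangles) and knockdown replicate 1 (orange circles) hold the lowest value in 27 of the 33 genes, and PTTG1 shows all 3 knockdown arrays below all 3 control arrays.

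**Figure D3:**
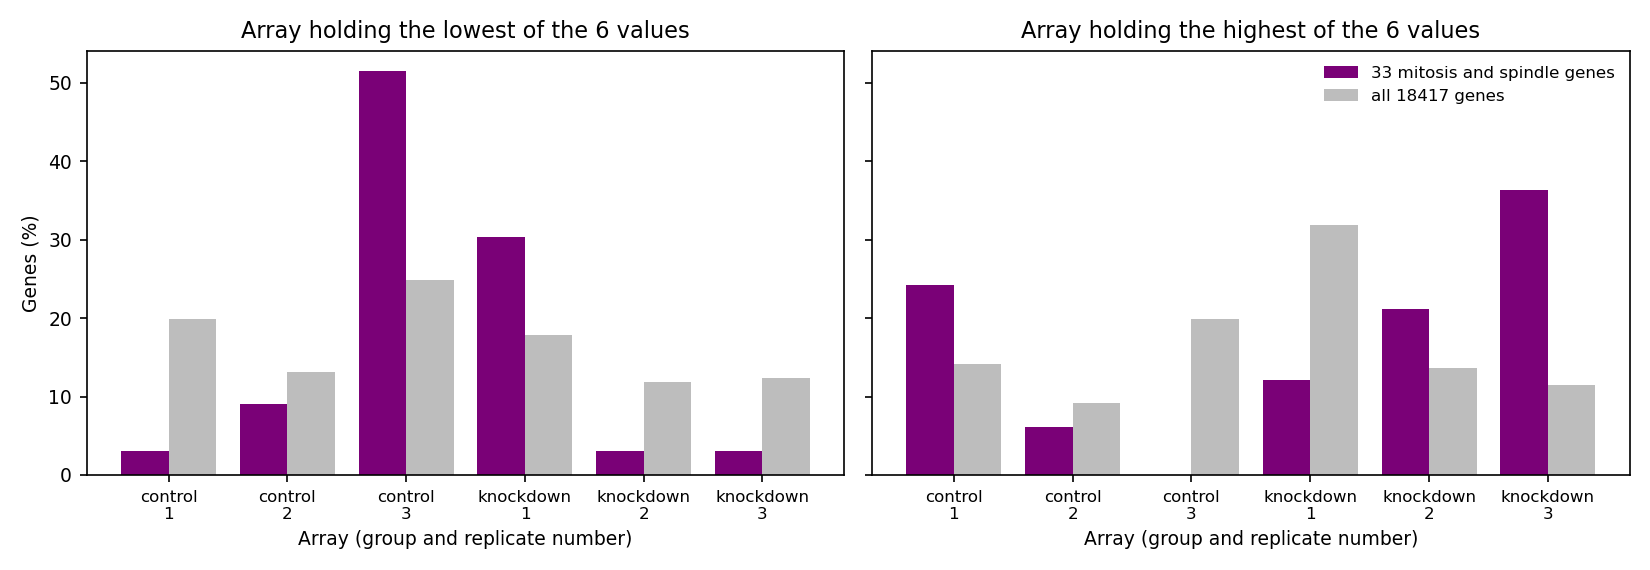
Share of genes (vertical axis, %) whose lowest (left) or highest (right) of 6 values lies on each array, for the 33 mitosis and spindle genes (purple) and all 18417 genes (grey). Control replicate 3 holds the lowest value in 51.5% of the 33 genes against 24.8% of all genes, and the highest in none of the 33.

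With control replicate 3 left out, 32 of the 33 differences became smaller or more negative, the median went from 0.03 to 0.0010 (all genes 0.03), and 18 were above 0 and 15 below. Without knockdown replicate 1 the median was 0.08, where that of all genes was 0.01. Without both arrays it was 0.04 (all genes 0.02), with 23 above 0 and 10 below. The match of the list's median with that of all genes therefore depends on which arrays are kept. No gene of the list passed in any of these 3 fits by limma. Of all genes, 1.21% passed higher and 1.7% lower without control replicate 3. Counting both directions, 0.38% of all genes passed without knockdown replicate 1 and 1.86% without both arrays. Among the differences that shrank without control replicate 3 were those of PLK1 (to 0.056), BIRC5 (to 0.040), CENPF (to 0.081), NDC80 (to 0.010), TPX2 (to 0.015) and NUSAP1 (to 0.0010). That of KIF20A went to -0.13. Without knockdown replicate 1 the difference was -0.070 for MAD2L1 and 0.086 for UBE2C. CENPE had -0.20 without control replicate 3 and -0.010 without knockdown replicate 1. Over the 6 fits with 1 array left out, 25 of the 33 genes kept their sign.

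The wider set of 119 other mitosis genes, of which 117 were measured, had a median of 0.06 (all genes 0.03). This median also depended on the arrays kept. Without control replicate 3 it was 0.018 (all genes 0.030), with 65 genes above 0 and 52 below. Without knockdown replicate 1 it was 0.081 (all genes 0.014). CDC25B, the phosphatase that activates CDK1 at mitotic entry, rose by 0.34 ± 0.07 (limma, adjusted p = 0.0343). It was the 1 gene called higher (0.855%, beside 1.28% of all genes). In the set 0 were called lower, beside 1.78% of all genes, and 116 did not pass. Control arrays of CDC25B read 10.66, 10.69 and 10.59 and its knockdown arrays 11.07, 10.99 and 10.92, with no overlap. Its adjusted p was 0.0592 to 0.105 with any 1 array left out. In the wider set, groups did not overlap for 29 genes on the higher side (24.8%) and for 10 on the lower (8.55%). Of all genes, 14.3% did not overlap on the higher side and 12.7% on the lower. At an unadjusted p of 0.05 there were 14 higher (12.0%) and 5 lower (4.27%), beside 10.1% and 9.23% of all genes. The APC/C genes, counted with regulators and separase, were 8 above 0 and 8 below (50% above, beside 59.6% of all genes). Groups did not overlap for 3 of these 16 on the higher side (18.8%, beside 14.3% of all genes). On the lower side there were 4 (25%, beside 12.7%). Named after their values were seen, the APC/C subunit genes ANAPC10 (-0.31), CDC23 (-0.25) and CDC27 (-0.24) were the lowest of these, with adjusted p of 0.0902, 0.152 and 0.0701.

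Genes of G1/S and DNA replication, the neighbouring phase of the cycle, had larger values. Their median was 0.19 over 42 measured genes, against 0.03 for the mitosis and spindle genes, and this difference between lists was not tested. Of the 42 genes, 39 were above 0 (92.9%, beside 59.6% of all genes). CCNE1, cyclin E1, which pairs with CDK2 at S phase entry, rose by 0.34 ± 0.07 (limma, adjusted p = 0.0481). The transcription factor gene E2F2 rose by 0.40 ± 0.09 (limma, adjusted p = 0.0481). These were the 2 genes called higher (4.76%, beside 1.28% of all genes), while 0 were called lower (beside 1.78%) and 40 did not pass. Both missed the threshold with any 1 array left out, with adjusted p from 0.0556 to 0.168 for CCNE1 and from 0.0556 to 0.161 for E2F2. CCNE1 also missed it after median centring (adjusted p = 0.0674) and E2F2 after quantile normalization (0.0501). Control replicate 3 was the lowest array for 40 of the 42 genes, with a median deviation of -0.29, and without it the median was 0.07 and 0 passed. The mitosis and spindle genes had a median deviation of -0.10 on the same array.

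**Figure D4:**
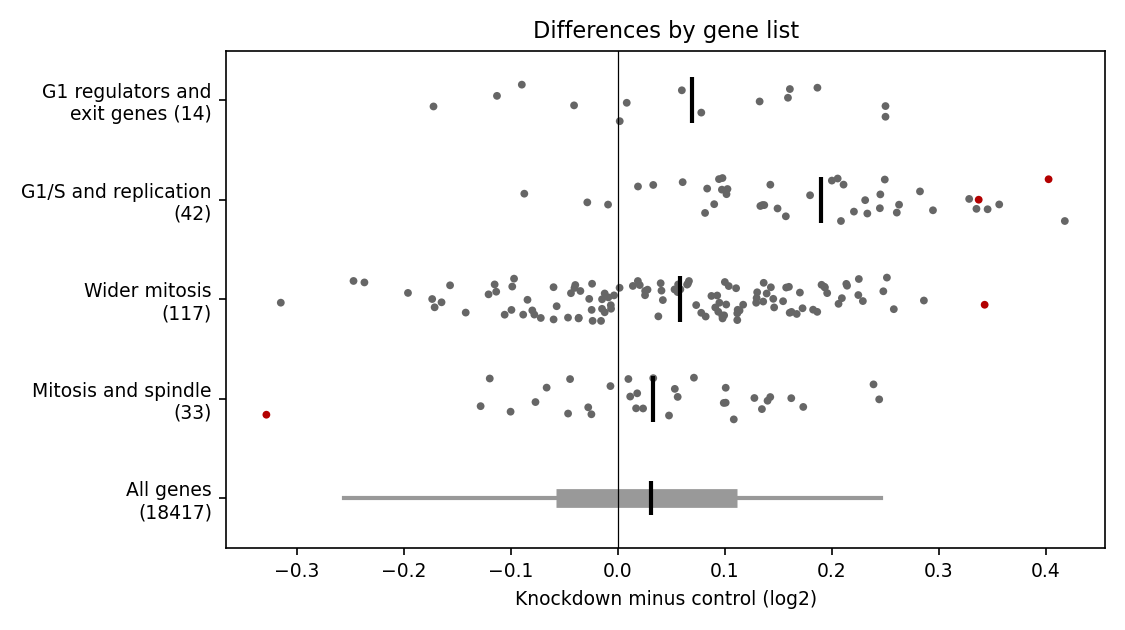
Differences, knockdown minus control on the log2 scale (horizontal axis), of the genes of 4 lists; each point is a gene, red where it passed the test, black ticks are list medians, and the bottom row shows all 18417 genes as median, quartiles (thick bar) and 5% to 95% range (thin bar). The mitosis and spindle median, 0.03, lies on that of all genes, and the G1/S and replication median lies at 0.19.

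A further list held regulators of G1 and of exit from the cycle: CDK inhibitors, pocket proteins, the D-type cyclins that drive G1, and genes of resting cells. None of its 14 measured members passed (limma; 0 higher and 0 lower, with 3 higher and 1 lower at an unadjusted p of 0.05, or 21.4% and 7.14%, beside 10.1% and 9.23% of all genes). RBL1, which encodes the pocket protein p107, had a difference of 0.25, which was 0.088 without control replicate 3. CDKN2D, which encodes an inhibitor of CDK4 and CDK6, also had 0.25, which was 0.14 without knockdown replicate 1. CCND3, which encodes cyclin D3, had 0.19, and the adjusted p of these 3 genes ran from 0.204 to 0.329. With array weights limma called 1 gene of this list higher and 1 lower (7.14% each), beside 9.33% of all genes higher and 8.74% lower. These were the CDK inhibitor genes CDKN1A and CDKN1B, named after their values were seen.

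The genes were also set beside their neighbours on the chromosome. For each gene the median difference of the 20 tested genes on each side in the GRCh38.p14 gene order was taken, the gene itself left out; NDC80 had 32 such neighbours and the other genes 40. For 9 of the 33 genes this median was within the lowest 10% of all such windows, at or below -0.05, a split chosen after the values were seen: CCNA2, PTTG1, MAD2L1, CCNB1, KIF20A, CENPE, KIF2C, CENPF and CDC20. Of these 9 genes 8 had negative differences, CENPF (0.13) being the exception, and of the other 24 genes 3 did (TTK, CDK1 and BUB1). Of all genes, 40.4% had negative differences. Around each of the 9 genes, 26 to 32 of the 40 neighbours were negative as well, so negative values there were not particular to the mitotic genes. CCNA2, MAD2L1 and CENPE lie on chromosome 4, CCNB1, KIF20A and PTTG1 on chromosome 5, and KIF2C, CENPF and CDC20 on chromosome 1. ASPM and NUF2, also on chromosome 1, were not among the 9. Windows of CCNA2 and MAD2L1, and of CDC20 and KIF2C, hold genes in common. The 9 are therefore not independent, and a shift of whole chromosomes was not told apart from a local one. The median was -0.14 around CCNA2, where 32 of 40 neighbours were negative, and -0.11 around MAD2L1, where 30 were.

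PTTG1 lies between SLU7 and MIR146A in this order. Its 40 neighbours had a median of -0.11 and 30 were negative, and PTTG1 itself differed from that median by -0.22. KIF20A (-0.05), next to the APC/C gene CDC23, was within 0.04 of its neighbours' median of -0.09. CCNA2 was higher than its neighbours by 0.11 and MAD2L1 differed from its own by -0.02. At the other end, MKI67 (0.16), KIF23 (0.03), BIRC5 (0.10) and UBE2C (0.14) lay among neighbours with medians of 0.07. What the shifts of neighbours have to do with those of the mitotic genes was not tested.

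**Figure D5:**
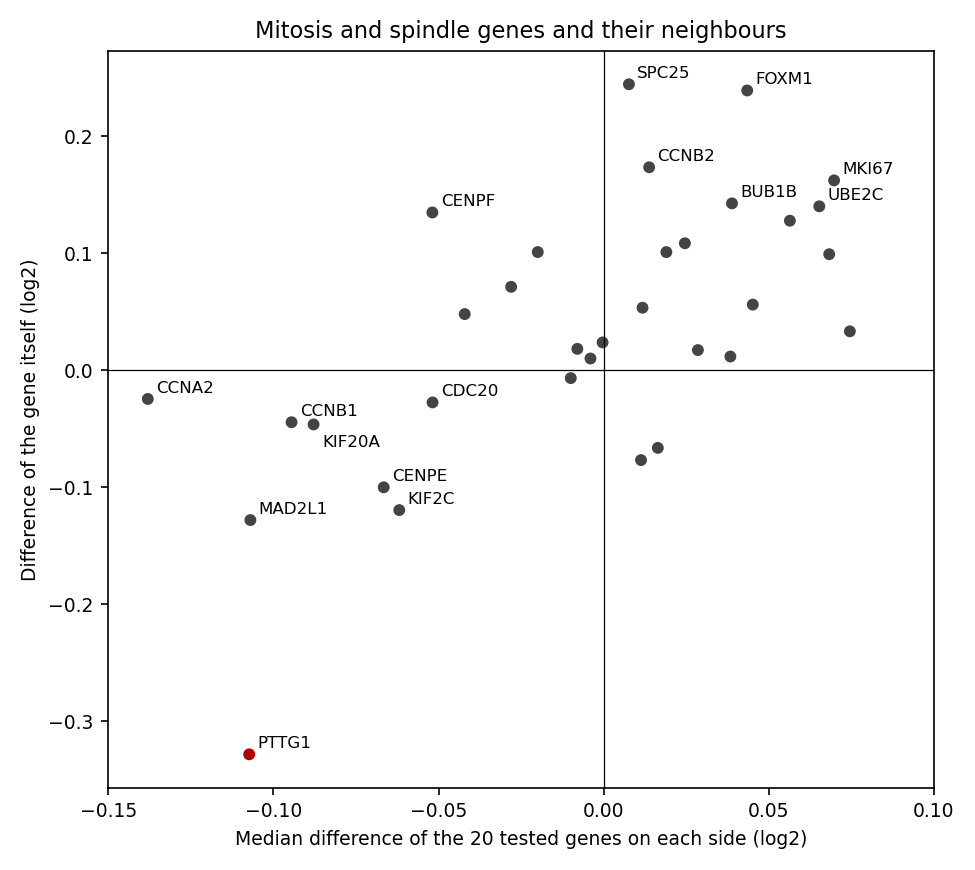
Difference of each of the 33 genes (vertical axis, log2, knockdown minus control) against the median difference of the 20 tested genes on each side of it in gene order (horizontal axis, log2); names mark genes with the lowest neighbour medians or the largest positive differences, and PTTG1, which passed the test, is red. Of the 9 genes whose neighbour median is -0.05 or lower, all on chromosome 1, 4 or 5, 8 lie below 0. So do 26 to 32 of the 40 neighbours of each of the 9, and 40.4% of all genes.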

How the data were processed

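Log2 values for 33297 probe sets on 6 arrays are the authors' deposited values, already summarised and scaled; which software, annotation and log base were used is not stated in the labels or the file, and log2 was taken from the range (2.13 to 14.8). Array medians lay between 7.79 and 7.86. Precision is set by having 3 arrays per group.

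The platform annotation gave 19460 probe sets 1 symbol, 1754 several and 12083 none; symbols were updated through Entrez numbers (GRCh38.p14 RefSeq table). Where a gene had more than 1 such probe set, the one with the highest mean stood for it, leaving 18417 genes. Each gene was fitted in R 4.3.3 by limma 3.58.1 (functions lmFit and eBayes; knockdown minus control, two-sided, no covariate, 4 residual degrees of freedom), with Benjamini-Hochberg adjustment over all 18417 and a threshold of 0.05; reported intervals are unadjusted.

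Genes and lists were chosen with earlier results of these data known. All members are named; values per array are given for set members, those with the largest difference of a role, those that passed and those whose groups did not overlap; other lists give genes that passed, or the 3 largest. The fit was tested on simulated data of 18417 genes with normal noise: among 200 altered genes it recovered 76% of those shifted by 0.5 and 97% of those shifted by 1, with 15 false calls. The noise was independent between genes and alike on all arrays, unlike these data, where control replicate 3 had a weight of 0.273. These rates may therefore not hold here, and shifts as small as that of PTTG1 (-0.33) were not simulated. Alternatives covered scaling, filtering, probe set choice, array weights, an intensity trend, the replicate block and left-out arrays.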

Additional observations from a re-analysis of the deposited data

How the results depend on the processing

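With 1 array left out, 0 members passed in either direction (main result 0 higher and 1 lower), the wider mitosis set had 0 calls (main 1), and all genes had 44 to 535 calls (main 562); the median of the members was 0.0010 to 0.08. Array weights called 2 members higher (CCNB2 and PRC1; 9.33% of all genes) and 2 lower (PTTG1 and KIF2C; 8.74%), with 15 wider genes and 3328 genes in all. With every probe set tested the counts were 0 lower, 0 wider and 47 in all, and without control replicate 3 and knockdown replicate 1 together 0, 0 and 343. Leaving out the lowest 33.3% of genes gave 4 wider and 972 genes, and an intensity trend 5 and 1083; PTTG1 passed in both, and after quantile normalization and median centring.

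With the replicate number as a block (replicate block), 0 members and 0 wider genes passed, of 217 genes in all, and PTTG1 had an adjusted p of 0.0869. Whether the numbers pair the arrays is not stated in the labels. Correlations of deviations for arrays of the same number were -0.246, 0.122 and 0.0877, and 1 of 3 control arrays correlated best with its own number. With so few arrays these values cannot decide whether arrays of the same number belong together.

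Signs turned for members near 0. Under median centring these were TOP2A (-0.0103), AURKA (-0.0086), NUF2 (-0.0031) and ECT2 (-0.0021). Under quantile normalization they were TTK (0.0115) and CDC20 (0.0028). TTK was at 0.0514 with array weights and 0.0813 without control replicate 3 and knockdown replicate 1 together. With 1 array left out the ranges were -0.0505 to 0.0722 for TOP2A, -0.0537 to 0.0027 for CCNA2, -0.0077 to 0.0434 for AURKA, -0.0649 to 0.11 for TTK, -0.10 to 0.0179 for CDC20, -0.0291 to 0.10 for NUF2, -0.0195 to 0.12 for KIF11 and -0.0429 to 0.10 for ASPM. None of these passed in any fit. The cause was not tested.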
